A study of Mus musculus with 16 samples.

Results

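The 9 genes described here encode constant parts of antigen receptors: Ighm, Ighd, Igkc, Iglc1 and Iglc2 of the immunoglobulins, and Trac, Trbc1, Trbc2 and Trdc of the T cell receptors. They were taken by name from the GENCODE vM21 annotation of the mouse genome (GRCm38, also called mm10) and are 9 of 21959 genes measured. Each was read with its surroundings, from 10 kb upstream of the gene to 15 kb downstream of it, in tiles of 500 bp. Of 387 such tiles that hold a CpG, 248 hold at least 3 CpGs, and 144 of these also had at least 20 methylation calls in at least 5 libraries of each cell type and were tested, out of 2253019 tiles tested across the genome. A call is 1 reading of 1 CpG by 1 sequenced fragment, and a level is the percent of calls that were methylated.

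The libraries came from spleens of C57BL/6J mice at 6 to 8 weeks of age, sorted with magnetic beads into CD43- resting B cells and CD4+ CD62L+ naive T cells, 8 libraries of each. Within each cell type there were 2 libraries for each combination of sex (male or female) and assay (BS or oxBS). Bisulphite sequencing (BS) reads 5-methylcytosine and 5-hydroxymethylcytosine together as methylated. Oxidative bisulphite sequencing (oxBS) reads 5-hydroxymethylcytosine as unmethylated. The labels name no engineered allele and no treatment, the samples are described as pooled without a number of animals, and bead sorting enriches a cell type without making it pure. Only part of each adapter-ligated DNA was oxidised, so that a BS and an oxBS library may come from the same DNA: the labels do not say which do, libraries of adjacent number (1 and 2, 3 and 4, and so on) are 1 BS and 1 oxBS library of the same cell type and sex, and the p-values below may therefore measure a spread among fewer independent samples than 8 per cell type.

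Antigen receptor genes are assembled in developing lymphocytes by V(D)J recombination, in which the RAG proteins cut the DNA beside variable, diversity and joining (J) segments. The segments are then joined, usually with loss of the DNA between them. The joined exon is then spliced to a constant exon further downstream, and enhancers in the J to C introns and downstream of the constant genes drive transcription. B cells rearrange the heavy chain locus (Igh) and then a light chain locus, kappa (Igk) in most mouse B cells and lambda (Igl) in few. T cells of the CD4 lineage rearrange the beta (Trb) and alpha (Tra) loci. The delta locus lies inside the alpha locus, between its V and J segments, so that joining a V to an alpha J segment cuts it out of that chromosome.

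The libraries held 123346598 to 170653234 calls in B cells and 154441442 to 169656013 in T cells, or 5.83 to 8.07 and 7.42 to 8.03 calls per autosomal CpG. The promoters of 6 of 6 B cell genes were lower in every B library than in every T library, and 6 of 6 T cell genes were lower in every T library. The promoter of Cd4 was lower in every T library (72.4% in B cells and 14.2% in T cells), and so were those of Cd8a (86.5 against 60.8%) and Cd8b1 (90.1 against 35.2%), which mark the CD8 lineage that the sort was meant to leave out, and the part of CD8 cells in the results was not tested. Of other cell types, 1 of 3 myeloid promoters was lower in B cells without overlap and 0 of 2 NK cell promoters was lower in either type. Some features of the libraries move with the results below. B libraries 1, 2, 9 and 10 had a pooled level over the B cell promoters of 10.2 to 13.6%, against 6.59 to 9.68% in libraries 3, 4, 11 and 12. In T cells the pooled level over the T cell promoters was 12 to 15.7% in the 4 BS libraries and 6.64 to 9.04% in the 4 oxBS libraries.

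The sequences below show, for 6 windows or pairs of windows, 300 bases around the CpGs of the tile with the largest called difference, chosen by the size of that difference. They are given on the strand of the gene from the GRCm38 reference, with each CpG in capitals. All lie outside annotated exons of the constant genes. The stretch named for Ighd lies between Ighm and its J segments, where the windows of Ighd and Ighm overlap. In the first 4 the CpGs were lower in B cells, and in the last 2 they were lower in T cells.
Ighm, chr12:113428126-113428425, minus strand: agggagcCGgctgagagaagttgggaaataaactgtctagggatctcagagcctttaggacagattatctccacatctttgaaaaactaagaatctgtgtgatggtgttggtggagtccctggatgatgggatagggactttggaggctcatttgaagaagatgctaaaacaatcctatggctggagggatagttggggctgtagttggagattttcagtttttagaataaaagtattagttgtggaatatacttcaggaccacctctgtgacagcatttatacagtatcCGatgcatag
Ighd, chr12:113423577-113423876, minus strand: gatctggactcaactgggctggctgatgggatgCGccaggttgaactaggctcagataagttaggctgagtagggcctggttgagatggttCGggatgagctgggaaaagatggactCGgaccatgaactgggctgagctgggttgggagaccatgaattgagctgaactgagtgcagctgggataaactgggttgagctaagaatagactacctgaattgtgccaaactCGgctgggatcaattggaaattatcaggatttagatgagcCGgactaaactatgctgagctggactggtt
Igkc, chr6:70724701-70725000, plus strand: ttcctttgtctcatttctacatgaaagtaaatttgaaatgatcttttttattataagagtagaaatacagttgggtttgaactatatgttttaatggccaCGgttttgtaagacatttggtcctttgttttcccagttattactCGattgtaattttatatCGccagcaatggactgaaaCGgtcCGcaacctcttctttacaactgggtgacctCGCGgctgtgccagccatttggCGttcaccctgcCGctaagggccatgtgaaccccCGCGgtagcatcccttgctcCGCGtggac
Iglc1, chr16:19051025-19051324, minus strand: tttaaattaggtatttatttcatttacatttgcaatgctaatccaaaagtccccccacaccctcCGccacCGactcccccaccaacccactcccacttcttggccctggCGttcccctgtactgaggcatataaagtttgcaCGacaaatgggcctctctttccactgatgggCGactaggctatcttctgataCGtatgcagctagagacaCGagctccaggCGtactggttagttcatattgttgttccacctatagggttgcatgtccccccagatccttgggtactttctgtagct
Trac, chr14:54210701-54211000, plus strand: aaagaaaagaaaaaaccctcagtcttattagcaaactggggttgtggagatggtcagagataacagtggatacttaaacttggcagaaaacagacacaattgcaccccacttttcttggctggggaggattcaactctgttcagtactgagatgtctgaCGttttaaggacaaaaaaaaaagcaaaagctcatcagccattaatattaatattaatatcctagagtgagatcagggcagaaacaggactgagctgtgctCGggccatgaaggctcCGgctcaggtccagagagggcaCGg
Trbc1 and Trbc2, chr6:41546201-41546500, plus strand: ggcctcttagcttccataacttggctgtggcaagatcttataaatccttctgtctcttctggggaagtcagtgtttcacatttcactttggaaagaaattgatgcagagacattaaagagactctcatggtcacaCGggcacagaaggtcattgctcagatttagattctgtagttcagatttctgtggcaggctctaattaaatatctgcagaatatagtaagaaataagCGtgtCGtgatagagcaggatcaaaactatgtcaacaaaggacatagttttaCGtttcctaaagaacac
The 13 CpGs of the Igkc sequence lay at 16.1 to 55.9% in B cells and 86.7 to 100% in T cells, each pooled over the 8 libraries. The 4 CpGs of the Trbc sequence lay at 95.1 to 98.6% in B cells and at 0% in T cells. Every CpG of the 6 sequences differed in the same direction as its tile, which the choice of tiles by their difference makes likely.

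Tiles were called in 8 of the 9 member windows, all but that of Iglc2. Of 62 tiles tested around the 5 immunoglobulin genes, 17 were called lower in B cells and 0 lower in T cells. Of 82 tiles tested around the 4 T cell receptor genes, 59 were called lower in T cells and 1 lower in B cells. A tile was called at an adjusted p under 0.05 (quasi-binomial logistic model that also held sex and assay, Benjamini-Hochberg over all tiles) and a difference of at least 20 percentage points. Together the members gave 18 of 144 tiles lower in B cells (12.5%) and 59 lower in T cells (41%), where all tiles tested in the genome gave 1.13% and 1.97%. The count lower in B cells moved with the settings, to 5 of 68 tiles tested at 40 calls per library, 2 of 134 in BS libraries only, 5 of 137 in oxBS libraries only, 5 of 128 in male and 1 of 139 in female libraries only, 12 of 119 with at least 5 CpGs, and 13 of 203 with libraries of adjacent number summed, where 74 were lower in T cells. In the T cell receptor tiles the median level was 92.1% in B cells and 12.7% in T cells, a median difference of 52.7 points, whereas in the immunoglobulin tiles it was 85.5% and 90.2%, a median difference of -2.19, and over all tiles of the genome the median difference was 0.390 points.

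**Figure D1:**
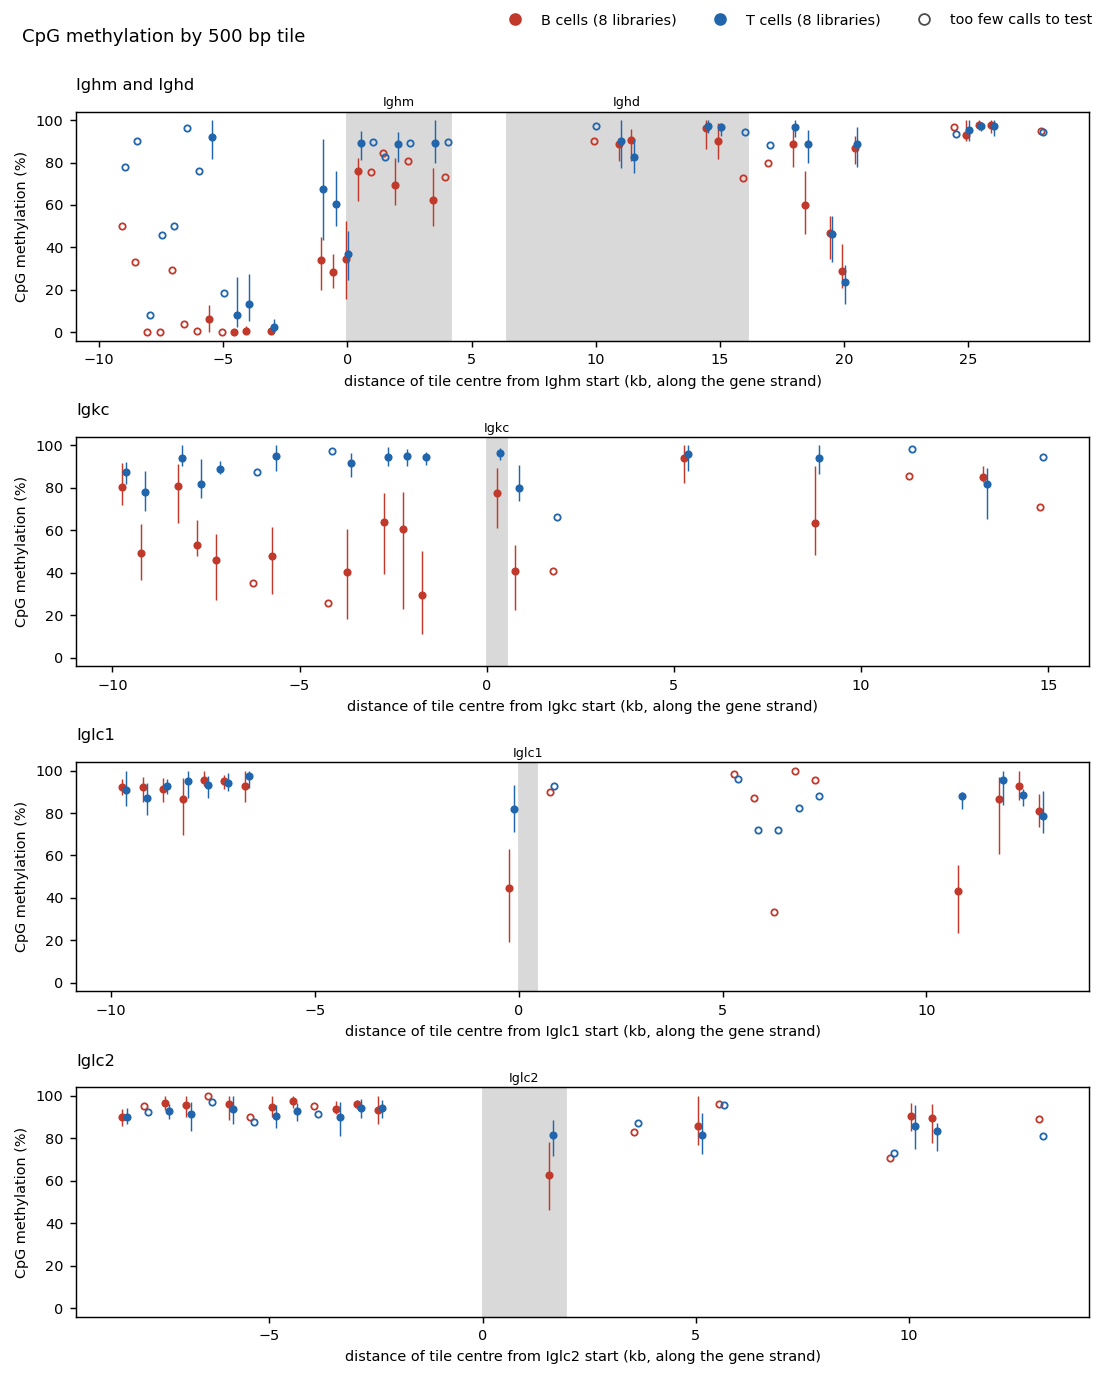
Methylation level (percent of calls, y axis) of each tile with at least 3 CpGs against its distance from the gene start in kb (x axis) around the immunoglobulin genes, with B and T cells as separate colours, the pooled level as the point, the lowest to highest library as the bar for tiles tested, and open circles for tiles with too few calls to test. The B cell values dip below the T cell values upstream of Ighm and Igkc. Around Iglc2 none of the tested tiles was called, although the Iglc2 gene as a whole was called lower in B cells.

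Ighm encodes the constant part of the mu heavy chain of IgM (chr12:113418558-113422730, minus strand, ENSMUSG00000076617.9). Its 10 kb upstream, which hold the J segments and the intronic heavy chain enhancer region, had levels of 6.49, 11.3 and 15.9% (lowest, median and highest of 8) in B cells and 36.5, 45.9 and 53.7% in T cells. The groups did not overlap, and the segment was called lower in B cells (pooled 11.3 against 45.6%, adjusted p = 7.25e-07). At its far end, over and beyond the first J segments, B cells had few or no calls, as given below. The pooled levels of the cell types therefore rest on partly different CpGs, with a difference of -34.3 points (B minus T). The interval from the last J segment in the window to the first constant exon was read in both cell types. It was at 11.9% in B cells and 35.8% in T cells, a difference of -23.9 points. Within it the tile at 113425501 was nearly unmethylated in both, at 0.493 and 2.39%, and was not called. The 3 tiles from 113426501 to 113428000 stood at 0 to 0.810% in B cells and at 8.37 to 18.4% in T cells. This stretch was low in both cell types and lowest in B cells. The tile that follows, at 113428001, had the largest difference of the window, with 0, 3.70 and 13% in the 5 B libraries that had at least 20 calls there and 81.8, 91.8 and 100% in T cells (adjusted p = 4.03e-07). T cells therefore changed from low to high within 1 tile at that point while B cells stayed low. The gene itself was at 71.4 and 82.2% and was not called, although 1 of its tiles, at 113419001 (exon), was lower in B cells (62.3 against 89.3%).

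Ighd encodes the constant part of the delta chain of IgD and lies downstream of Ighm, so that its upstream segment contains the Ighm gene and the windows share tiles (chr12:113406604-113416324, minus strand, ENSMUSG00000104213.5). None of its 3 segments was called: the upstream segment was at 54.6 and 68.4%, the gene at 88.8 and 90.6%, and the downstream segment at 84.2 and 88% in B and T cells. The largest called difference was in the tile at 113423501, between Ighm and its J segments, with 20, 34.7 and 44.7% in B cells and 43.6, 68.8 and 91.1% in T cells (adjusted p = 0.00308). In this tile the highest B library lay above the lowest T library, so that the groups overlapped. Within the Ighd introns both cell types were highly methylated, and downstream of Ighd the tiles at 113402501 and 113403001 were intermediate in both, at 28.7 and 46.7% in B cells and 23.8 and 46.4% in T cells. The single downstream tile called, at 113404001, was at 59.9% in B cells and 88.7% in T cells.

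Igkc, the only constant gene of the kappa light chain (chr6:70726435-70726966, plus strand, ENSMUSG00000076609.2), had the most called tiles of the immunoglobulin genes, 10 of 15 tested. Its upstream segment, with the 5 J segments and the intronic kappa enhancer, was at 42.5, 53.9 and 66.9% in B cells and 88.6, 89.3 and 92.1% in T cells (adjusted p = 5.38e-06). All B libraries lay below all T libraries. The level in B cells was not even along the segment: it was 64% at 70723501, over Igkj4 and Igkj5, and 29.6% at 70724501, between the J segments and the constant exon, where T cells were at 94.7 and 94.4%. By library the tile at 70724501 gave 10.9, 29.9 and 50% in B cells and 90.7, 94.9 and 97.1% in T cells (adjusted p = 5.42e-06). Among the tiles tested, 7 neighbours in a row were called, from 70718501 to 70725000. The constant exon had 61, 76.5 and 89.6% in B cells and 93.3, 96.3 and 98.7% in T cells, without overlap (adjusted p = 3.35e-05), but its difference of -18.7 points was under the 20 points of a call, which it passed without B library 9 (-21.1 points). Downstream the segment was at 69.9 and 85.5%, a difference of -15.5 points that was also not called, with 2 called tiles in it, at 70727001 (41 against 79.9%) and at 70735001 (63.3 against 93.9%). The second lies 8816 bp from the gene start.

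In B cells the levels at Igkc differed among libraries more than in T cells. Libraries 1, 2, 9 and 10 stood at 58.6 to 66.9% in the upstream segment and libraries 3, 4, 11 and 12 at 42.5 to 49.1%. The same 4 libraries were at 73.9 to 81.1% in the Ighm gene against 60.7 to 66.1% in the others. They were the 4 highest B libraries in 9 of 15 immunoglobulin segments and in 1 of 12 T cell receptor segments, and in 3.78% of 64173 segments of all genes. This order was noticed in the values and was not tested. Both sets are made of whole pairs of adjacent number (1 and 2, 9 and 10 against 3 and 4, 11 and 12), which may share DNA. The 4 libraries may therefore stand for fewer independent samples, and the Ighm and Ighd segments among the 15 overlap. Libraries 1, 2, 9 and 10 are those with the higher level over the B cell promoters given above, and the part of cell makeup in the result was not tested.

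Iglc1 and Iglc2 encode lambda light chain constant parts (chr16:19061618-19062071 and chr16:19198396-19200351, both on the minus strand, ENSMUSG00000105906.1 and ENSMUSG00000076937.3). The genes themselves were lower in B cells: Iglc1 was at 39.1, 48.1 and 73.9% in B cells and 70.6, 85.6 and 92.1% in T cells (adjusted p = 0.00273, or 0.0614 with BS and oxBS libraries of adjacent number summed, where the call was lost). Iglc2 was at 40, 44.9 and 67.2% in B cells and 70.4, 78.9 and 85.6% in T cells (adjusted p = 0.000409). The Iglc1 groups overlapped and the Iglc2 groups did not. The annotated Iglc2 gene also spans its J segment, Iglj2, whereas Iglj1 lies outside the annotated Iglc1 gene. Both gene segments are small, with 4 and 10 CpGs. The lambda constant exons resemble one another closely, so that reads from them may be placed on the wrong copy. The flanks of Iglc1 were lower in B cells without overlap but under the 20 points of a call, with a difference of -11.6 points upstream (77.6 against 89.2%, adjusted p = 0.000573) and with a difference of -12.5 points downstream (75.7 against 88.1%, adjusted p = 0.000750). Those of Iglc2 overlapped between the cell types. Upstream of Iglc2 B cells were at 93% and T cells at 91.2%, and in that window 0 of 13 tiles tested were called. A further 8 tiles of that window with at least 3 CpGs had too few calls in B cells to be tested. In the Iglc1 window the largest called difference was downstream of the gene, in the tile at 19051001 (an exon of the uncharacterised gene 2010309G21Rik), with 23.3, 43.8 and 55.6% in B cells and 82.1, 89.2 and 90% in T cells (adjusted p = 3.00e-06). There the groups were well apart.

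**Figure D2:**
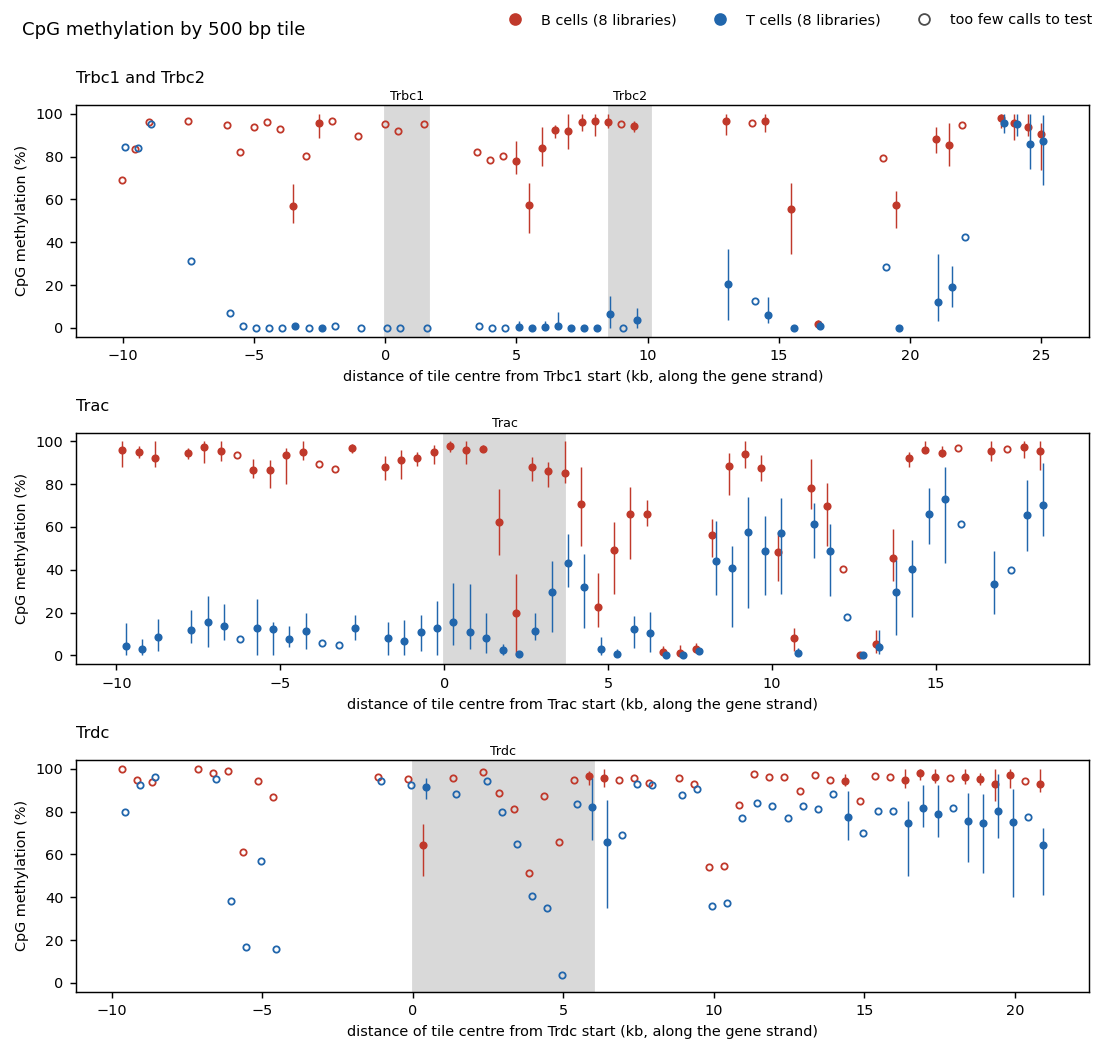
Methylation level (percent of calls, y axis) of each tile with at least 3 CpGs against its distance from the gene start in kb (x axis) around the T cell receptor genes, drawn as in the plot of the immunoglobulin genes. T cells lie far below B cells in most tiles around Trac, Trbc1 and Trbc2, with the cell types close to each other in some, and the gap is smaller around Trdc.

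Trac encodes the constant part of the alpha chain (chr14:54220521-54224206, plus strand, ENSMUSG00000076928.5) and had the most neighbouring tested tiles called in a row among the members, though the run of Trbc1, with 14 tiles from 41534501 to 41554000, spans more bases. Its upstream segment, which holds Traj7 to Traj1, was at 91.2, 92.4 and 94.2% in B cells and 5.15, 9.75 and 13% in T cells (adjusted p = 1.25e-10). The gene was at 75.2, 78.8 and 85.2% in B cells and 5.37, 9.04 and 19.7% in T cells (adjusted p = 4.36e-09). Neither segment overlapped between the cell types. In all, 36 of 48 tiles tested were lower in T cells and 0 in B cells, and 19 neighbours in a row among the tiles tested were called, from 54210501 to 54222500. The tile at 54210501, close to the upstream edge of the window, had the largest difference, with 88, 96.5 and 100% in B cells and 0, 2 and 15.2% in T cells (adjusted p = 5.19e-07).

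Downstream of Trac lies the region of the alpha enhancer, and further on the gene Dad1. The segment was at 51.5, 54.1 and 60.1% in B cells and 18.7, 27.9 and 38.8% in T cells (adjusted p = 6.38e-05), a smaller difference than in the gene. The difference was 18.6 points in BS libraries alone, under the 20 points of a call, and 34.8 points in oxBS libraries alone. The segment was made of unlike tiles. At 54225501 B cells were at 49.3% and T cells at 0.469%. From 54227001 to 54228500, 3 tiles in a row were unmethylated in both cell types, with B cells at 1.04 to 2.84% and T cells at 0 to 1.85%. The tile at 54233001 was at 0.199 and 0%. These tiles were not called, since their levels leave no room for a drop of 20 points. In the Dad1 gene, which encodes a subunit of the oligosaccharyltransferase and ends the window, 5 tiles were called again lower in T cells, the largest at 54237001 (intron), with 95.6% in B cells and 33.5% in T cells. Lower levels of T cells thus reached past the gene end of Trac to the end of the window.

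Trbc1 and Trbc2 encode the 2 alternative constant parts of the beta chain, each behind its own D and J segments (chr6:41538218-41539881 and chr6:41546730-41548352, both on the plus strand, ENSMUSG00000076490.6 and ENSMUSG00000076498.2). Their windows overlap, and the Trbc2 gene lies in the downstream segment of Trbc1. The Trbc1 gene was at 90.1, 94.1 and 100% in B cells and at 0 in all 8 T libraries, that is in 0 of 292 calls, which allows a level of up to 1.03% (adjusted p = 4.26e-09). The Trbc2 upstream segment was at 76.9, 79.6 and 84.2% in B cells and 0, 0.110 and 0.683% in T cells (adjusted p = 1.31e-11), and the Trbc2 gene at 91.5, 95.7 and 97.2% and 0, 3.21 and 14% (adjusted p = 5.21e-08). Upstream of Trbc1 T cells were less uniform, with 82, 84.1 and 86.6% in B cells and 9.50, 12.7 and 22.6% in T cells (adjusted p = 1.43e-09). Near the upstream edge of that window, from 41528001 to 41529500, T cells were at 84.2 to 95.1% and B cells at 69 to 96.3%, in tiles that had too few calls in T cells to be tested. The tile at 41546001, just before the first Trbc2 exon, was at 89.7, 96.9 and 100% in B cells and at 0 of 233 calls in T cells, which allows up to 1.29% (adjusted p = 2.11e-08).

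The beta constant genes shared a downstream boundary. Tiles were called lower in T cells as far as 41559501, including the tile over Trbv31, the single V gene downstream of Trbc2, at 41557501 (57.3% in B cells and 0% in T cells). From 41561501 on both cell types were methylated, at 97.9 and 95.5% in that tile, and the 4 tiles tested there were not called. The tile at 41554501 was unmethylated in both, at 1.99 and 0.772%. Of the 144 member tiles tested, 26 were at 5% or less in T cells and 8 in B cells, against 2% and 1.85% of all tiles of the genome.

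Trdc encodes the constant part of the delta chain, which CD4 T cells with an alpha-beta receptor do not use (chr14:54142851-54148868, plus strand, ENSMUSG00000104876.1). Over the whole window and in the gene its levels differed less than those of the other T cell receptor genes. By segment this did not always hold, with 29.1 points upstream of Trdc and 25.8 points downstream of Trac. The levels at Trdc rest on the calls that remained in T cells. Upstream, B cells were at 86, 89.1 and 91.1% and T cells at 49.5, 60.5 and 68% (adjusted p = 1.64e-06). The gene was at 84.7 and 69.6% (difference 15 points, adjusted p = 0.000276) and the downstream segment at 92.8 and 77% (difference 15.8 points, adjusted p = 3.34e-06), both without overlap and both under the 20 points of a call. The window held the single T cell receptor tile lower in B cells, at 54143001 over a Trdc exon, with 50, 61.6 and 74.4% in B cells and 85.7, 92 and 95.8% in T cells (adjusted p = 0.00430, or 0.229 with libraries of adjacent number summed, where the call was lost). Its largest called difference in the other direction was at 54149001, over Trdv5, with 91.5, 97.3 and 100% in B cells and 34.8, 72 and 85.3% in T cells (adjusted p = 0.000803). Of 52 tiles with at least 3 CpGs only 12 could be tested, since all 40 others were short of calls in T cells. In a sorted population a lower level cannot be told apart from a larger share of cells with unmethylated copies.

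**Figure D3:**
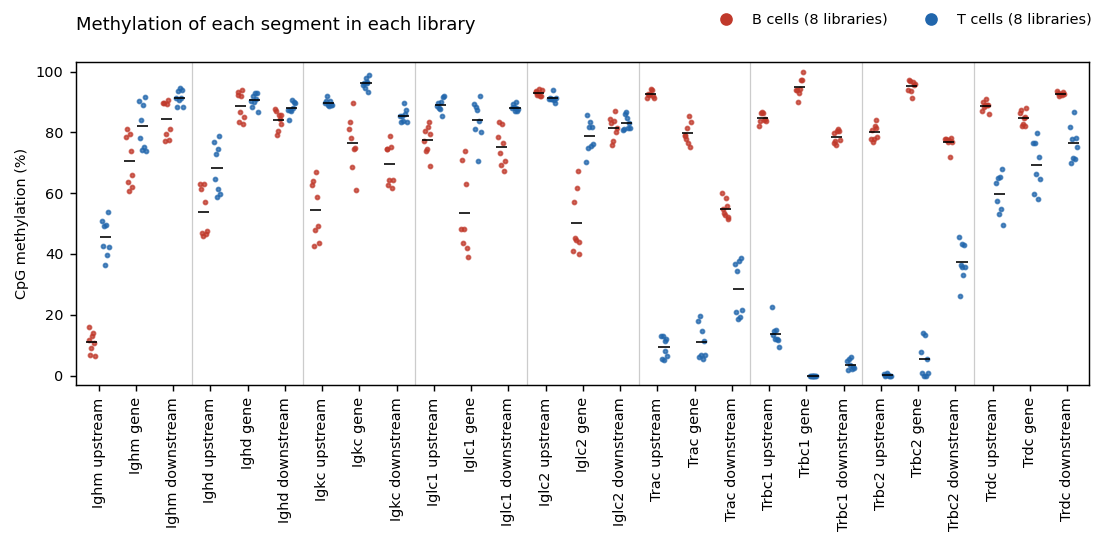
Methylation level (percent of calls, y axis) of each member gene's upstream, gene and downstream segment, with 1 point per library for the 8 B and 8 T libraries and the mean as a dash. The points of both cell types are separate at every T cell receptor segment. They overlap in and downstream of Ighm, at every Ighd segment, in the Iglc1 gene and at the Iglc2 flanks.

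By segment, 4 of 27 member segments were called lower in B cells, against 0.0948% of all gene segments tested, and 10 lower in T cells, against 0.368%. Among the latter, the segments of Trbc1 and of Trbc2 overlap and are not separate evidence. The median difference of the members was -1.64 points (B minus T), and that of all segments 0.807. The other 12 constant genes, a list of heavy chain isotypes, further lambda genes and gamma T cell receptor genes, gave 1 segment of 35 lower in B cells and 5 lower in T cells, with a median difference of 0.903. The segment lower in B cells was downstream of Iglc3 (62.4 against 85.3%), a stretch that contains the member gene Iglc1 and most of its downstream segment and so is no separate evidence. Those lower in T cells belonged to the gamma genes Tcrg-C1 (gene 90.9 against 55%), Tcrg-C2 (upstream 92.6 against 68.1%) and Tcrg-C4 (upstream 90.4 against 66.3%). Calls per CpG, relative to the library mean, were fewer in T cells upstream of Tcrg-C2 (0.350 of those in B cells) and upstream of Tcrg-C1 (0.575). The libraries did not overlap in calls there, and the levels of T cells rest on these fewer calls. In the other called gamma segments the libraries overlapped in calls. Isotype constant genes such as Ighg1 or Igha, which a B cell uses after class switching, were in none of the calls. The 11 genes of receptor partners, a list of signalling, surrogate and related chains, gave 6 of 33 segments lower in B cells and 8 lower in T cells, median -1.21. Of these 8 segments 7 belonged to the neighbouring genes Cd3d, Cd3e and Cd3g, whose stretches overlap and are not separate evidence. Cd79a (gene 19.4 against 71%) was among the former and Cd3d (gene 65.2 against 3.10%) among the latter. For the 3 genes of recombination itself (Rag1, Rag2 and Dntt), 0 of 9 segments were called lower in B cells and 0 in T cells, median -0.923.

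The number of calls also differed at these genes, which bears on how the levels above are read. Relative depth here is the calls per CpG of a region divided by the autosomal calls per CpG of that library, so that 1 is the genome mean. By edgeR's quasi-likelihood test over all segments, with an adjusted p under 0.05 and a log2 difference of at least 0.5, 3 member segments had fewer calls in B cells, against 0.0462% of all segments, and 6 had fewer in T cells, against 0.0893%. Of the 30 segments with fewer calls in B cells genome-wide 9 lie in the 6 antigen receptor loci, and of the 58 with fewer in T cells 32 do, 27 of them at Trb. These counts include the member segments, and the share of all segments tested that lie in the loci was not counted. Segments of neighbouring genes can overlap, as the Trbc1 gene lies within the segment upstream of Trbc2, and are then not separate evidence. Calls alone cannot tell DNA that is absent from DNA that was read poorly.

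**Figure D4:**
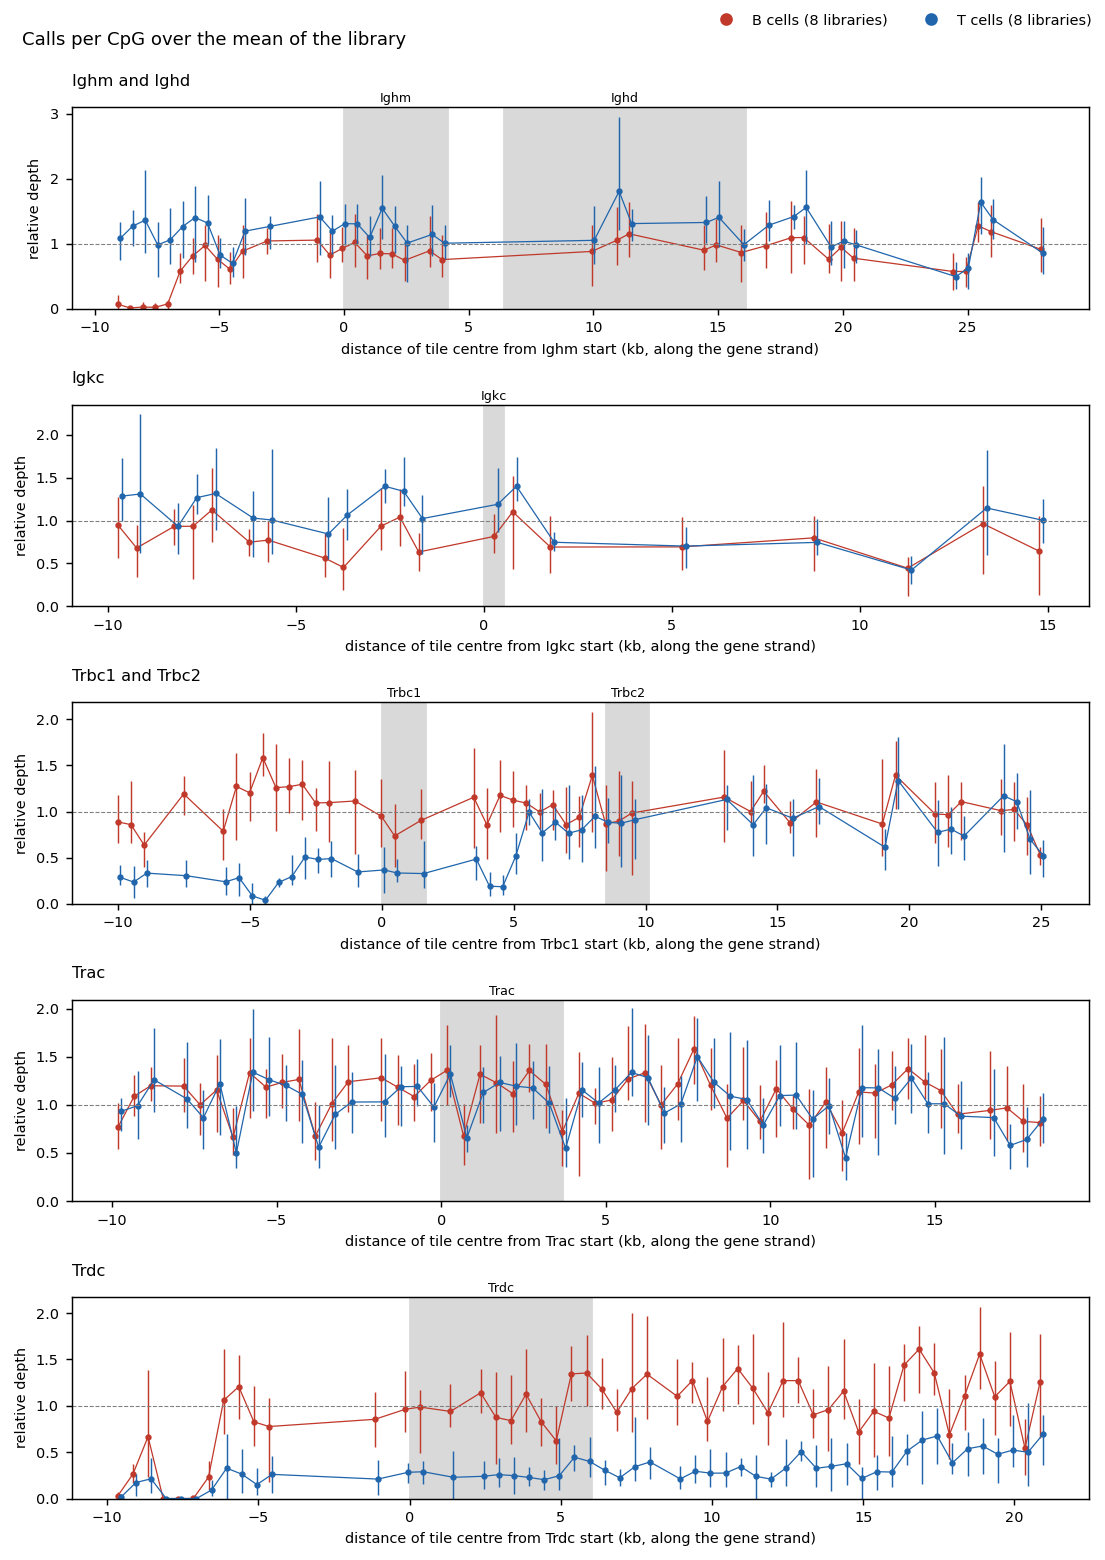
Relative depth (calls per CpG over the autosomal mean of the library, y axis) of tiles against distance from the gene start in kb (x axis) for B and T cells in 5 panels that cover Ighm with Ighd, Igkc, Trbc1 with Trbc2, Trac and Trdc, with the mean of 8 libraries as the point, the lowest to highest library as the bar and the gene shaded. B cell depth falls over and upstream of the Ighm J segments, and T cell depth falls upstream of and at Trbc1 and around Trdc.

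In the Ighm upstream segment the log2 difference in calls was 0.95 ± 0.07 (SE) (T minus B, adjusted p = 2.89e-09). Over the J cluster of the window the relative depth was 0.247, 0.302 and 0.371 (lowest, median and highest library) in B cells and 0.912, 1.08 and 1.54 in T cells, with no overlap (p = 0.000155 by exact permutation of the libraries, two-sided, a value that 8 against 8 libraries cannot go below). The drop began at the J segments: at 113429501, over Ighj1 and Ighj2, the median depth of B cells was 0.0868, and from 113430001 to 113431500, which includes Ighd4-1, it was 0 in each of 3 tiles where T cells had 1.05 to 1.26. Downstream of the last J segment, at 113428001, B cells were at 0.946. On the side of the constant gene B cells were near the genome mean, and T cells were above it: the median depth of the Ighm gene was 0.971 in the former and 1.25 in the latter. The log2 differences there were 0.39 ± 0.08 (SE) in the Ighm gene (adjusted p = 0.0183), 0.36 ± 0.06 (SE) downstream of it (adjusted p = 0.000966) and 0.38 ± 0.06 (SE) in the Ighd gene (adjusted p = 0.00222), again with fewer calls in B cells but under the 0.5 of a call. The libraries did not overlap downstream of Ighm or in the Ighd gene. In the Igkc window the log2 difference was 0.54 ± 0.06 (SE) upstream (adjusted p = 7.63e-06) and 0.55 ± 0.12 (SE) in the gene (adjusted p = 0.0242), both with fewer calls in B cells. The gene's call was lost without B library 10 (adjusted p = 0.0578), T library 6 (0.0574) or T library 15 (0.0505), and the upstream one without B library 12, where the log2 difference of 0.499 fell just under 0.5 (adjusted p = 9.28e-06). The kappa J cluster had 0.497, 0.614 and 1.12 in B cells and 1.06, 1.26 and 1.40 in T cells, a smaller gap than at Ighm and with overlap (exact permutation p = 0.000311). At the lambda J segments, each of 1 or 2 CpGs, the exact permutation p was 0.130 for Iglc1 and 0.441 for Iglc2.

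Among the members, T cells had fewer calls at the beta and delta genes. Upstream of Trbc1 the log2 difference was -1.97 ± 0.06 (SE) (T minus B, adjusted p = 1.65e-15), and in the gene -1.32 ± 0.16 (SE) (adjusted p = 2.84e-05). The Trbc1 D and J cluster had a relative depth of 1.07, 1.33 and 1.45 in B cells and 0.190, 0.241 and 0.330 in T cells, and the tile over Trbj1-1, at 41533501, had 1.39, 1.54 and 1.85 in B cells and 0, 0.0387 and 0.0805 in T cells. The Trbc2 cluster, further downstream, was at 0.950, 1.08 and 1.38 in B cells and 0.535, 0.668 and 0.749 in T cells (exact permutation p = 0.000155 for both clusters). At both clusters the libraries did not overlap, and the depth in T cells rose from the J segments toward the constant gene, from 0.166 at 41542501 to 1.01 at 41543501 within the Trbc2 cluster. The segment upstream of Trbc2 had fewer calls in T cells by a log2 difference of -0.68 ± 0.05 (SE) (adjusted p = 7.40e-09), without overlap, and the Trbc2 gene had no called difference in calls. Around Trdc the log2 differences were -1.79 ± 0.08 (SE) upstream (adjusted p = 2.53e-13), -1.84 ± 0.08 (SE) in the gene (adjusted p = 1.15e-12) and -1.54 ± 0.05 (SE) downstream (adjusted p = 1.74e-14). The Trdc gene had a relative depth of 0.918, 1.01 and 1.07 in B cells and 0.198, 0.271 and 0.386 in T cells. Upstream of Trdc both cell types were under the genome mean, at 0.354, 0.393 and 0.464 in B cells and 0.0935, 0.114 and 0.136 in T cells. Trac, which lies downstream of all the alpha J segments, showed no such gap: the log2 difference was -0.08 ± 0.05 (SE) upstream, -0.11 ± 0.06 (SE) in the gene and -0.05 ± 0.06 (SE) downstream, none called, and its J cluster had 1.05, 1.15 and 1.30 in B cells and 0.938, 1.06 and 1.23 in T cells (exact permutation p = 0.121).

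**Figure D5:**
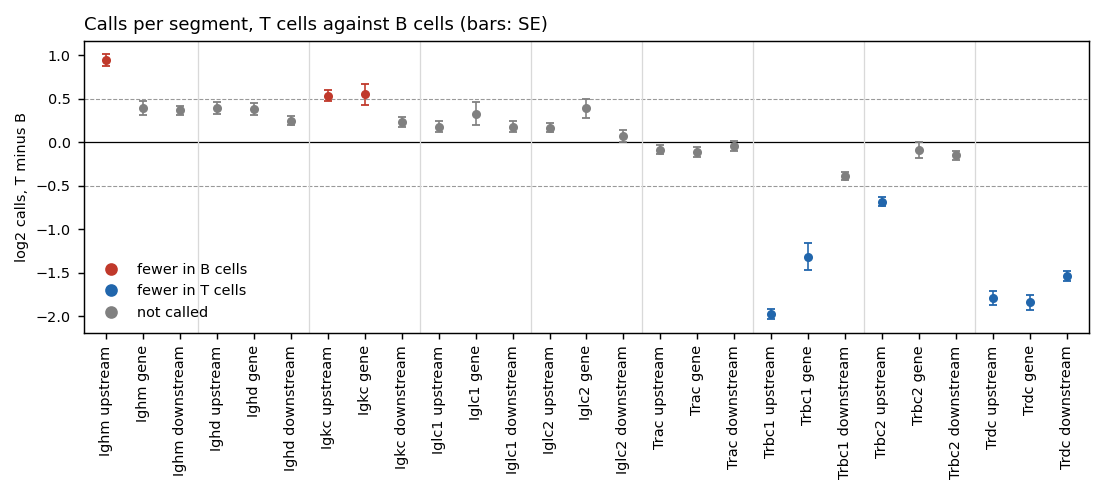
Log2 difference in calls (T minus B, edgeR, y axis) of each member gene's upstream, gene and downstream segment. The bar is the SE, dashed lines mark a difference of 0.5 in either direction, and colour marks the segments called. Fewer calls in T cells were called upstream of and in Trbc1, upstream of Trbc2 and in the 3 segments of Trdc. Fewer calls in B cells were called upstream of Ighm and upstream of and in Igkc.

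At the J segments the level and the depth can be set side by side. In the Ighm J cluster the pooled level was 3.89% in B cells and 58.3% in T cells. Methylation at the Trbc1 cluster stood at 81.9% in B cells and 0.390% in T cells, and the Trbc2 cluster at 68.2% and 0.0661%. In these clusters the calls that remained were nearly all unmethylated in the cell type that had fewer of them. At Ighm the level of B cells rests on the CpGs that still had calls. At the end of the Trbc2 cluster, the tile at 41543501 had a T cell depth near the genome mean and gave 0 methylated of 1400 T cell calls. The tile at 41542501, of low depth in T cells, gave 0 of 90. The low level at Trbc2 was thus not confined to CpGs with few calls. At Igkc the pattern differed in degree, with 57.3% in B cells and 93.5% in T cells. At Trac the J cluster was at 92.4% in B cells and 10.9% in T cells at like depth, so that there the level of T cells was low without fewer calls. At Trdj2, the J segment of the Trdc window (2 CpGs), T cells had a depth of 0.304 over that of B cells. They were not nearly unmethylated there, at 50% on 36 calls, against 99.1% in B cells. The lambda J segments, with few CpGs, were at 0% (Iglc1, 0 of 39 calls, which allows up to 7.69%) and 20% (Iglc2, 100 calls) in B cells. In T cells they were at 85% and 82.8%. Their depth did not clearly differ (exact permutation p = 0.130 and 0.441).

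The cell type difference was tested for change with sex and with assay. The cell type by sex term was called in 0% of all segments and in 0 of the 27 member segments. The cell type by assay term was called in 1.89% of all segments and in 3 of the 27: Trac upstream (adjusted p = 0.0331), Trac downstream (adjusted p = 0.00975) and the Trbc2 gene (adjusted p = 0.0416). In Trac upstream the BS libraries of T cells were at 11.5 to 13% and the oxBS libraries at 5.15 to 8%, and in Trac downstream at 34.5 to 38.8% and 18.7 to 21.4%. The level over the T cell marker promoters moved the same way between the assays, as given above, and its part in the result was not tested.

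For Igkc and Trac the genes with the most alike pattern were sought among 21536 and 21535 genes outside their own windows, by the mean absolute difference in window level over the 16 libraries. Those nearest to Igkc were Cd79b, a signalling chain of the B cell receptor (5.09 points), Gh (6.14) and Scn4a (7.26), which lie next to Cd79b on chromosome 11 and whose windows overlap with its own. Nearest to Trac were Tcf7, a transcription factor of T cells (5.11 points), Trbc2 (7.17) and Cd2 (8.07). The likeness is a description over 16 libraries with 2 cell types, and no gene lay within 5 points of either.

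Short motifs known from receptor enhancers and recombination were counted on both strands in the tiles tested, and none of them contains another. The octamer ATGCAAAT, bound by OCT factors, was in 6 of 144 member tiles (4.17%) and in 3.32% of all tiles. The kappa-B motif GGACTTTCC was in 3 member tiles (2.08% against 0.440%), and the recombination signal heptamer CACAGTG in 26 (18.1% against 14%). The RUNX motif TGTGGT (29.2% against 32.7%), the TCF/LEF motif CTTTGA (29.9% against 31.7%), the E-box CAGGTG (36.1% against 32.1%), the GATA motif AGATAA (25% against 25.1%) and the cyclic AMP response element TGACGTCA (1.39% against 0.496%) were counted too. A match describes the letters of a tile and is not a bound site.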

How the data were processed

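The authors deposited, for each of 16 whole-genome bisulphite libraries, counts of unmethylated and methylated calls per CpG with both strands added. According to the study's methods and the submitters' processing notes, reads were trimmed with Trim Galore 0.6.0, mapped to mm10 (GRCm38) with Bismark 0.20.0 at default options, handled with SAMtools 1.3.1 and called at a mapping quality of at least 10. This mapping drops reads that fit several places, which lowers depth in near copies of genes. The libraries are marked as re-analyses of libraries deposited before, without pooling of replicates.

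Calls were summed over 500 bp tiles on a fixed grid and over the upstream, gene and downstream segments of each gene (GENCODE vM21). Tiles had to hold at least 3 CpGs, and tiles and segments 20 calls in at least 5 libraries of each cell type, so that regions lost from 1 cell type are under-represented. Levels were compared by a quasi-binomial logistic model with cell type, sex and assay (F test on the deviance, Pearson dispersion not under 1, Benjamini-Hochberg over all tiles or segments), in Python 3.11.15 with numpy 2.4.6, scipy 1.17.1, pandas 2.3.3 and numba 0.67.0. Calls per segment were compared with edgeR 4.0.16 (quasi-likelihood, total calls as library size) in R 4.3.3, with DESeq2 1.42.0 and limma 3.58.1 for alternatives. J clusters, the spans of annotated D and J genes inside the 10 kb upstream of a member, were compared by a two-sided exact permutation test of relative depth over 12870 splits, unadjusted, 1 per cluster. For Iglc2 the J segment, Iglj2, lies inside the annotated gene instead. The intervals from J to constant genes were added after the values were seen and carry no test in the text. Scripts were tested on simulated data. No pair of libraries of 1 cell type held the same counts at more than 10.2% of CpGs on chromosome 6. Groups follow the labels, and replicates are libraries, whose p-values may measure technical spread.

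Named tiles were, per window, the called tile with the largest difference in each direction, and others named in the text were chosen after their values were seen. Limits from a count of 0 (3 calls) cover counting error only. The members, lists and tests were chosen with earlier results of these data known.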

Additional observations from a re-analysis of the deposited data

Results flagged for a closer look

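Among 143 groups of 8 libraries compared (levels and relative depths of members, B and T cells apart), 5 held a library that stood apart from the rest by Dixon's criterion, and chance alone flags about 1 group in 20. In B cells these were the relative depth of the Trdc window in library 2 (0.791, others 0.880 to 0.925), the relative depth of the Trbc2 gene in library 2 (0.764, others 0.946 to 1.10) and the level downstream of Trbc2 in library 10 (71.9%, others 76.7 to 78.2%). In T cells they were the level upstream of Iglc2 in library 13 (93.8%, others 89.7 to 91.2%) and the level upstream of Trbc1 in library 5 (22.6%, others 9.50 to 14.9%). The last of these libraries is 1 of 4 T libraries read by BS, and the segment has few calls in T cells.

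The cell type difference itself differed between the assays at 3 of 27 member segments, by the cell type by assay term of the logistic model: Trac upstream (adjusted p = 0.0331), Trac downstream (adjusted p = 0.00975) and the Trbc2 gene (adjusted p = 0.0416). In the Trbc2 gene the 4 BS libraries of T cells were at 5.56 to 14% and the 4 oxBS libraries at 0 to 0.870%, while those of B cells were at 93.6 to 96.5% and 91.5 to 97.2%.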

How the results depend on the processing

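Against 18 tiles lower in B cells and 59 lower in T cells of 144 tested, a minimum of 40 calls per library gave 5 and 34 of 68 tested. Tiles lower in B cells numbered 2 in BS libraries only, 5 in oxBS libraries only, 5 in male and 1 in female libraries only, each with 4 against 4 libraries. Member segments lower in B cells numbered 9 at 10 points, 2 at 30 points and 2 in female libraries only, against 4, and segments with fewer calls in B cells 7 at a log2 difference of 0.25 and 0 at 1, against 3. With BS and oxBS libraries of adjacent number summed, 4 against 4 (chosen after seeing the data), the tiles numbered 13 and 74 of 203 tested, the segments 3 and 10 and the segments with fewer calls 3 and 6. Leaving out 1 library gave 14 to 18 and 53 to 60 tiles, 4 to 5 and 10 segments, and 2 to 3 and 6 segments with fewer calls. The difference downstream of Iglc2 turned to 0.254 points in female libraries only. The cause of these changes was not tested, save that subsets hold fewer libraries. No paired analysis was possible because no library number is shared between B and T cells. Depth limits the tiles around Ighm, Trbc1 and Trdc most, where many have too few calls to test.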

Other observations

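The J to C intervals, chosen after the values were seen, repeat the order of the J clusters at most members. In the interval of Igkc B cells were at 40.2% and T cells at 89.3%. Between Trbc1 and its J segments B cells were at 94.4% and T cells at 0.559%, and before Trbc2 at 87.8% and 0.246%. The Trdc interval, read at a median relative depth of 0.241 in T cells, was at 84.9% in B cells and 42.6% in T cells. Within the Trdc window some tiles that could not be tested were far lower in T cells than their neighbours: the tile at 54147501, over a Trdc exon, was at 66% in B cells and 3.81% in T cells, and the tile at 54138001 at 86.6% and 16.1%. They rest on 105 and 112 calls over the 8 T libraries.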
